A study of Mus musculus with 9 samples.

Results

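Cytochrome P450 enzymes are heme proteins that oxidize lipids, steroids, vitamins and foreign compounds with electrons passed on by a reductase. In the kidney they are known mainly from the proximal tubule, where members of the Cyp4a group turn arachidonic acid into hydroxy acids that act on vessel tone and salt transport, and members of the Cyp2c and Cyp2j groups turn it into epoxides. The members described here are the mouse genes whose symbol is Cyp followed by a number, with Cyp27b1 and Cyp24a1 left out. The array carried probes for 78 such genes, and 46 of them had a probe well above background on 3 or more of the 9 arrays and were tested among 17741 genes. Of the 46, 35 were well above background on all 9 arrays.

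The study asked which transcripts change in the kidney when the ureter is closed and after it is reopened. RNA from entire left kidneys was hybridized for 3 Clip kidneys, whose ureter had been closed with a vascular clip for 2 days, for 3 ClipR-14 kidneys, in which 2 days of clipping were followed by 12 days without the clip, and for 3 control kidneys, 2 from sham-treated mice and 1 from an untreated mouse. Every mouse, controls included, was a male of 10 weeks on a mixed strain background with the ISAM genotype, written in the labels as Epo–/–::3.3K-Epo3'-Tg458. ISAM mice lack the endogenous erythropoietin gene, carry an erythropoietin transgene and are anaemic as adults, so all values come from anaemic animals and no group with intact Epo was measured. On which day the control kidneys were taken is not given. The labels list each array as its own kidney and say nothing of litter or cage, so p-values measure only the spread between these kidneys.

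A level is the log2 of a probe's background-subtracted intensity over the 75th percentile of its array, so that 0 is the intensity of the 75th percentile and 1 unit is a 2-fold difference. Levels of different probes depend on the probe and were not set against each other, except to choose the brightest probe of a gene. The summed level of a list is the log2 of the added intensities of its probes. Bright probes weigh most in it, and it was compared only between arms. The 75th percentile lay between 320.4 and 439.2 intensity units, 52.0% to 57.5% of probes were well above background, and no spot was saturated. Each of 3 slides held 1 Clip, 1 ClipR-14 and 1 control array. The untreated kidney was the control of the slide that was scanned on a second date. A gene passed when its limma p-value, adjusted by Benjamini and Hochberg over the 17741 genes, was under 0.05. Errors of log2 changes are standard errors and errors of means are SD with n = 3.

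After 2 days of clipping, P450 transcripts were on balance lower. In Clip against control kidneys 24 of the 46 genes fell, 7 rose and 15 did not pass. Of the 7 that rose, Cyp3a13 and Cyp26a1 were well above background on the 3 Clip arrays alone, so the filter let them in only through the arm in which they were high. Of the 24 that fell, Cyp4f15 was well above background on no Clip array and came in only through arms in which it was high. Over all genes tested 27.5% fell, 21.4% rose and 48.9% passed in either direction. The median log2 change was -1.01 over the 46 genes and -0.09 over all genes. Falls of at least 2-fold were found in 21 of the 46 and rises of at least 2-fold in 4, where 9.49% and 9.44% of all genes had them. Of the 35 genes above background on all arrays, 20 fell and 5 rose in this fit. A separate fit of all 15127 genes above background on all arrays kept these 25 calls and gained Cyp20a1. In that fit 4650 of all genes fell and 3120 rose. The median change of the 46 genes was -0.91 within the first slide, -1.49 within the second and -0.53 within the third, whose control was the untreated kidney. Each of the 31 genes that passed had the same sign on all 3 slides. With normexp background correction 8 of the 31 did not pass (Cyp4f15, Cyp4f14, Cyp2c29, Cyp2c40, Cyp2u1, Cyp4a31, Cyp26a1 and Cyp2s1). This setting adds an offset of 50 intensity units to every spot, which by itself shrinks the log2 changes of dim probes. How much of the smaller changes comes from the offset was not tested. The plot of cumulative changes sets the family against all genes in both comparisons with control.

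**Figure D1:**
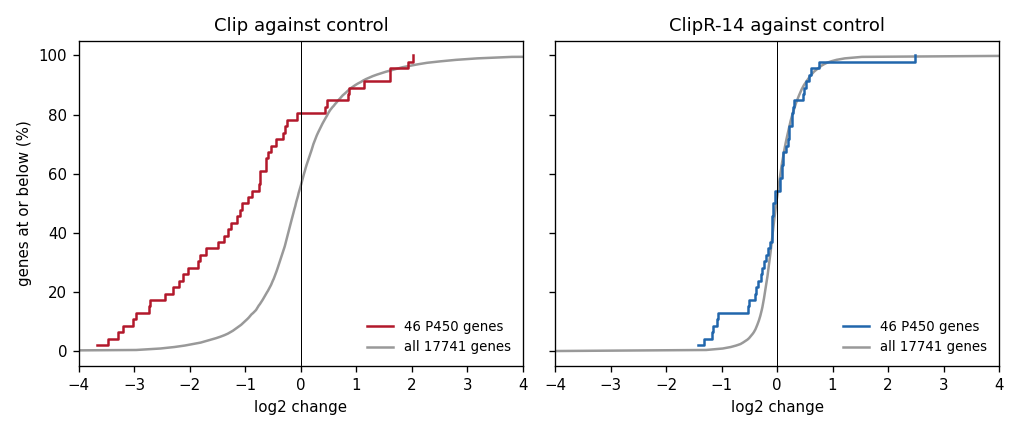
Percentage of genes (y axis) at or below a given log2 change (x axis) for the 46 P450 genes (coloured steps) and all 17741 genes (grey), in Clip against control (left) and ClipR-14 against control (right); each P450 gene adds 1 step. The median of the P450 genes is -1.01 on the left, against -0.09 for all genes, and -0.05 on the right, against -0.01 for all genes.

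Genes that mark the nephron moved with the family. Of 11 proximal tubule markers, 10 were lower in Clip kidneys (median log2 change -1.56), with their summed level at 7.86 to 8.245 on the Clip arrays, 9.23 to 9.63 on the ClipR-14 arrays and 9.36 to 9.68 on the control arrays. Both thick limb markers and all 3 collecting duct markers fell too. Fibroblast markers rose in 5 of 5 and macrophage markers in 4 of 5, where 27.5% of all genes fell and 21.4% rose. The part of these cell types in the P450 changes was not tested, and in whole-kidney RNA fewer cells of a type and less RNA per cell cannot be told apart. Of 5 measured adrenal markers none passed in Clip or ClipR-14 kidneys against control, and their summed level was 0.42 to 0.94 on the Clip, 0.84 to 1.26 on the ClipR-14 and 0.62 to 2.08 on the control arrays, the last with the untreated kidney highest for Hsd3b1 and Akr1b7.

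**Figure D2:**
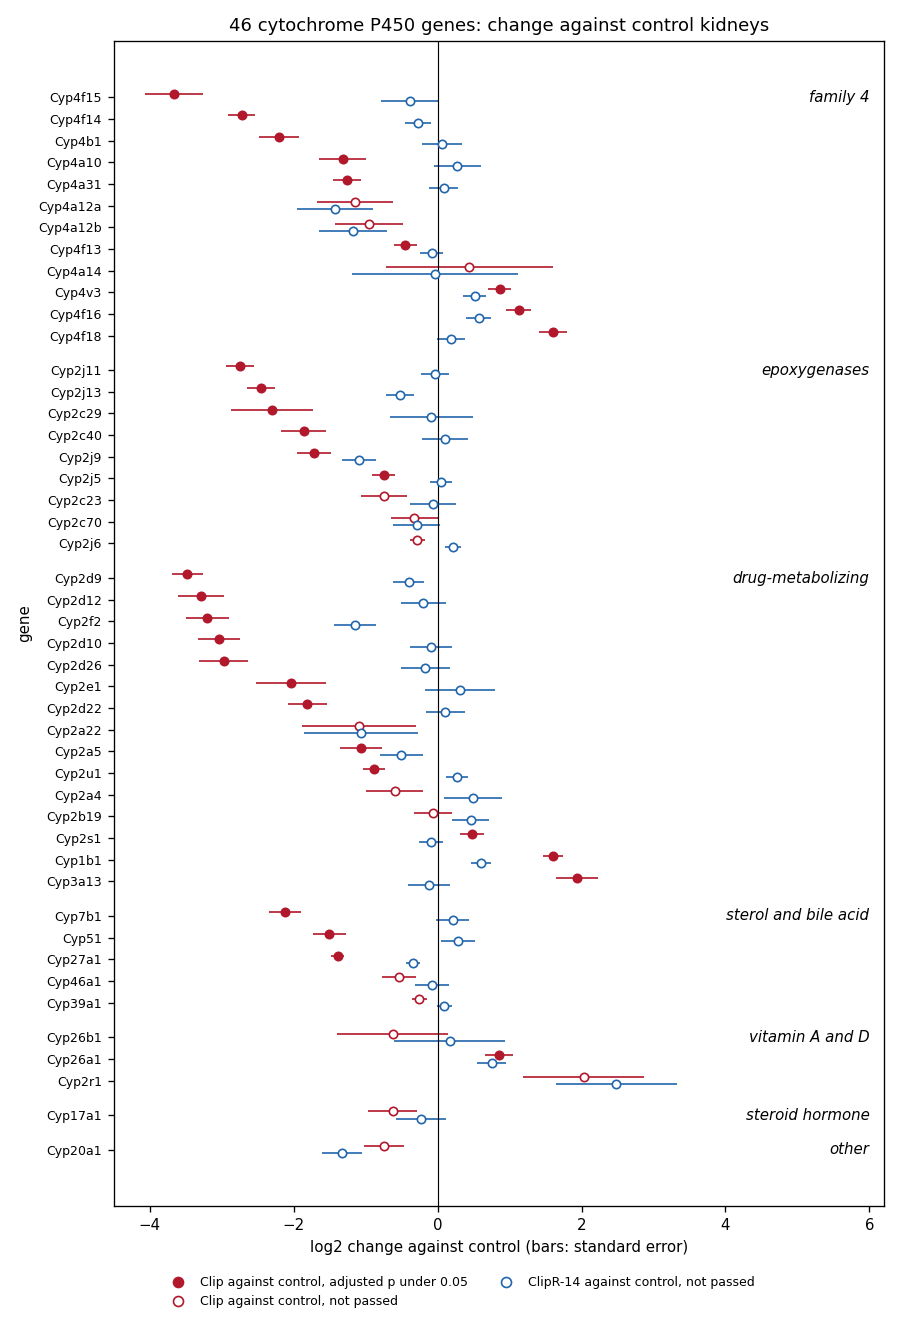
Log2 change against control kidneys (x axis) of each P450 gene (y axis), grouped by role, for Clip (red, upper point) and ClipR-14 (blue, lower point); bars are standard errors and filled points have an adjusted p under 0.05. In Clip kidneys 24 genes are filled on the left and 7 on the right of 0, and no ClipR-14 point is filled.

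The group of drug- and steroid-metabolizing enzymes from families 1 to 3 included the Cyp2d genes. Of its 15 tested genes 9 fell and 3 rose, where 27.5% of all genes fell and 21.4% rose. The Cyp2d genes lie next to each other on chromosome 15, and all 5 that were measured fell. Promoters of 3 of them are printed, each of which holds a match to a searched pattern. Cyp2d12 and Cyp2d22 fell as well, but no match to a searched pattern was found for them, and they are not printed. They are taken from RefSeq (GRCm38.p6) and run from 250 bases before the start of the gene to 50 after it. Cyp2d9 lies at chr15:82452127-82452426 on the plus strand, Cyp2d10 at chr15:82407145-82407444 on the minus strand and Cyp2d26 at chr15:82794196-82794495 on the minus strand. Capitals mark a match to AGGNCA repeated after 1 base, a direct repeat bound by nuclear receptors, in Cyp2d9 and Cyp2d10, and to CAAAGTNCA, the core of sites of the hepatocyte factor Hnf4a, in Cyp2d26.
Cyp2d9: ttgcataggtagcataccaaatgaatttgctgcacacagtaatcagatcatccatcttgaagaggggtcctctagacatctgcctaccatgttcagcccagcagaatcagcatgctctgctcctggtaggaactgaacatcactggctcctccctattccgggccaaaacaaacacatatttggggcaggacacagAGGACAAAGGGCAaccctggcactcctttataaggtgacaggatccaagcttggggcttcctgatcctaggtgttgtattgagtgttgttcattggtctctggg
Cyp2d10: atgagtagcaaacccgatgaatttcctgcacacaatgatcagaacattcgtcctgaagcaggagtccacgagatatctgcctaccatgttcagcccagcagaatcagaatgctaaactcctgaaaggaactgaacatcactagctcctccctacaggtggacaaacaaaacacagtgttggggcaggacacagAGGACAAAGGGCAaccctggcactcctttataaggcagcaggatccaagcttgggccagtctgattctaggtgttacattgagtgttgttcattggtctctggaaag
Cyp2d26: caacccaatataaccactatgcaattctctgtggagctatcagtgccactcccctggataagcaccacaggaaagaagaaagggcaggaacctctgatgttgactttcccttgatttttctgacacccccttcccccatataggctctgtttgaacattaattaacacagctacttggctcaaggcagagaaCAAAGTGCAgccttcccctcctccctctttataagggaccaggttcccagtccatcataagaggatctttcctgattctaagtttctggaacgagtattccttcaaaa

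The Cyp2d9 and Cyp2d10 promoters are identical at 86.1% of aligned bases and share the same matched letters, AGGACAAAGGGCA, 54 to 42 bases before the start in Cyp2d9 and 57 to 45 before it in Cyp2d10. Cyp2d26 is identical at 75% to Cyp2d9 and at 77.4% to Cyp2d10, and its match, CAAAGTGCA, lies 58 to 50 bases before the start. Of all 32851 promoters listed, 0.381% held the repeat of AGGNCA and 1.41% held CAAAGTNCA. A promoter was found for 34 of the 46 genes, of which 2 held the first pattern and 4 the second (Cyp2d26, Cyp2c40, Cyp2c70 and Cyp26a1). In all, 13 patterns were searched on both strands, several of which overlap. TGNCCTTTG, whose reverse complement lies within the first pattern, was in 1.93% of all promoters and in 4 of the 34 (Cyp2d9, Cyp2d10, Cyp2a22 and Cyp4b1). GTTAAT was in 7.10% and 5 of 34, AGAACA in 19.0% and 7, GCGTG in 32.4% and 10, TTCTNNGAA in 5.19% and 2, TCACNCCAC in 1.24% and 2, and CAAAGTCCA, part of the second pattern, in 0.475% and 2. AGGTCA repeated after 1 base was in 0.040% of all promoters, TGACCTTTG in 0.478%, TTAAT and ATTAA around 1 base in 0.122%, and GTTAAT followed by NATT in 0.399%, and none of these 4 was in the 34. A match is a run of letters only, and binding was not measured.

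Cyp2d9, known in male mice as a testosterone hydroxylase, had levels of 2.60, 1.73 and 2.34 on the Clip arrays, 5.40, 5.31 and 5.18 on the ClipR-14 arrays and 5.79, 5.88 and 5.43 on the sham 1, sham 2 and untreated arrays. All Clip arrays lay below every other array. It fell 11.1-fold in Clip kidneys (log2 change -3.48 ± 0.22, adjusted p = 8.92e-06). A second Cyp2d9 probe changed by -3.54. Cyp2d12 stood at 0.10, -0.87 and -0.49 in Clip, 3.04, 2.74 and 2.24 in ClipR-14 and 2.89, 3.30 and 2.41 in control kidneys, a 9.77-fold fall in Clip against control (-3.29 ± 0.32, adjusted p = 6.75e-05). Cyp2d10 stood at 0.52, -0.58 and 0.29 in Clip, 3.21, 3.14 and 2.68 in ClipR-14 and 2.79, 3.35 and 3.18 in control kidneys and fell 8.19-fold (-3.03 ± 0.29, adjusted p = 6.88e-05). Cyp2d26 had 3.85, 2.47 and 3.54 in Clip, 6.28, 6.13 and 5.86 in ClipR-14 and 5.88, 6.41 and 6.49 in control kidneys and fell 7.86-fold (-2.97 ± 0.34, adjusted p = 0.00016). In all 4 genes the Clip arrays lay apart from the other arms, and the second Clip array was the lowest. Cyp2d22, whose product is the mouse enzyme most often likened to human CYP2D6, fell 3.51-fold (-1.81 ± 0.27, adjusted p = 0.000746), and its second, dimmer probe changed by -0.68. Cyp2d genes are alike in sequence, so their probes may share signal and the values of single members are uncertain.

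Cyp2f2, which activates naphthalene in the mouse airway, had -3.11, -4.37 and -3.47 in Clip kidneys, -1.29, -1.64 and -1.87 in ClipR-14 kidneys and -0.52, -0.38 and -0.47 in control kidneys. The 3 arms did not overlap, with ClipR-14 between the other two. Cyp2f2 fell 9.17-fold in Clip against control (-3.20 ± 0.29, adjusted p = 5.36e-05) and was well above background on 2 of the 3 Clip arrays. With normexp background correction its change was -1.03 (adjusted p = 0.0216). Cyp2e1, which oxidizes ethanol and small solvents, had 2.16, 1.64 and 2.35 in Clip, 4.56, 4.63 and 3.99 in ClipR-14 and 4.76, 4.68 and 2.82 in control kidneys. The untreated kidney lay far below both sham kidneys but still above every Clip kidney, and Cyp2e1 fell 4.1-fold (-2.04 ± 0.49, adjusted p = 0.00848). Cyp2a5, the mouse coumarin hydroxylase, averaged 4.02 ± 0.05 in Clip and 5.08 ± 0.48 in control kidneys and fell 2.09-fold (-1.06 ± 0.29, adjusted p = 0.016). Its near-identical neighbour Cyp2a4, a testosterone hydroxylase whose promoter matches that of Cyp2a5 at 98.3% of bases, did not pass (-0.60 ± 0.40, adjusted p = 0.247), and probes for the pair may each read both. Cyp2u1, which hydroxylates long fatty acids, fell 1.84-fold (-0.88 ± 0.15, adjusted p = 0.0016), a change that turned to 0.16 with normexp background correction.

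Cyp1b1, Cyp3a13 and Cyp2s1 rose in the same group. Cyp1b1, which hydroxylates oestradiol and is induced through the aryl hydrocarbon receptor, had 1.66, 1.74 and 1.48 in Clip, 0.44, 0.66 and 0.78 in ClipR-14 and 0.18, 0.06 and -0.18 in control kidneys. The arms did not overlap and ClipR-14 lay between the other two. Cyp1b1 rose 3.04-fold in Clip against control (1.61 ± 0.13, adjusted p = 3.35e-05). Cyp3a13, an enzyme of the drug-oxidizing Cyp3a subfamily, stood at -3.01, -3.08 and -3.03 in Clip, -5.14, -5.43 and -4.72 in ClipR-14 and -5.47, -5.17 and -4.29 in control kidneys. It was well above background on all 3 Clip arrays and on no ClipR-14 or control array. For such a gene the bright arm was set against the lowest signal counted as well above background. By this bound the rise in Clip against control was at least 2.32-fold. The limma adjusted p of 0.000759 belongs to the measured change of 1.93 ± 0.29, not to the bound. Cyp3a13 entered the test only through the arm in which it was high, so this p-value is no separate support for the rise. Cyp2s1, an epithelial enzyme, rose 1.39-fold (0.47 ± 0.17, adjusted p = 0.0458), a call lost in 10 of 18 other settings. Cyp1a1, the classic target of the aryl hydrocarbon receptor, was well above background on 1 ClipR-14 array alone and was not tested.

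**Figure D3:**
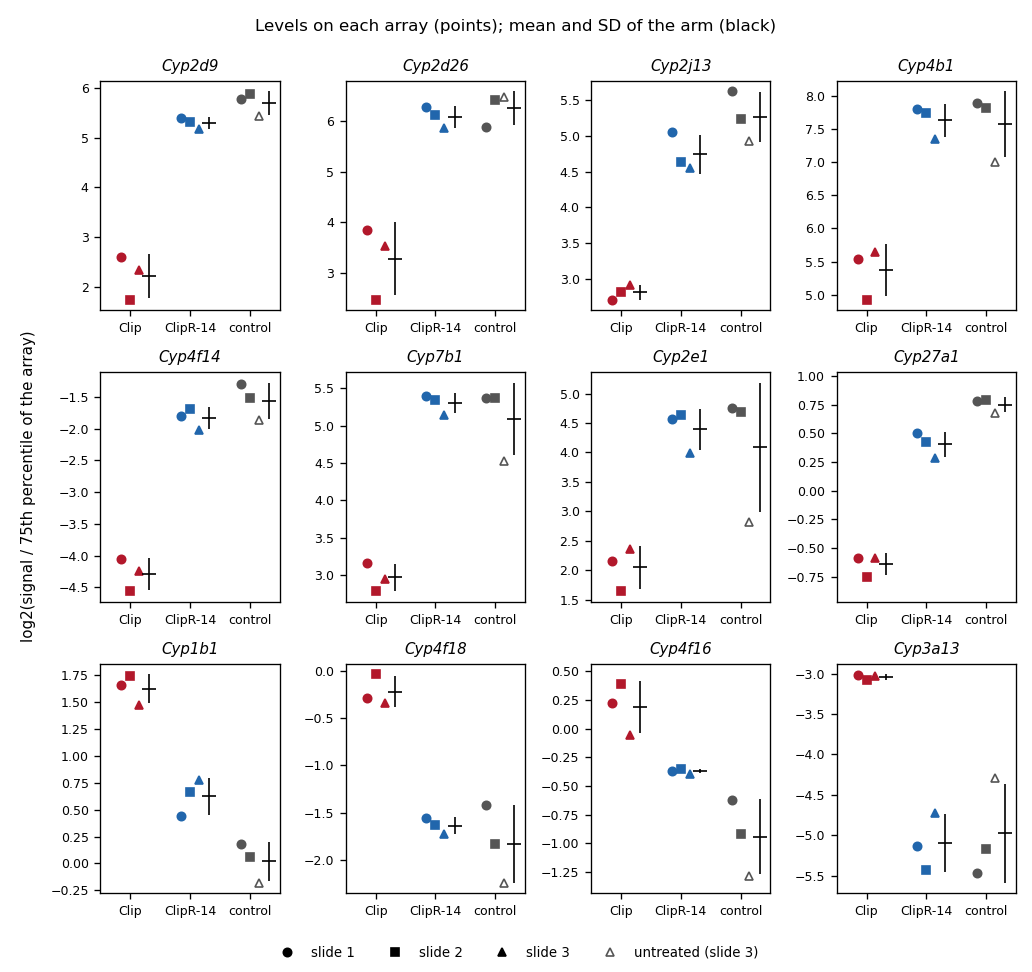
Levels (log2 of signal over the 75th percentile of the array, y axis) of 12 P450 genes in Clip, ClipR-14 and control kidneys (x axis); each point is 1 array, its shape the slide, the open triangle the untreated kidney, and the black cross with its bar the mean and SD of 3. Clip arrays lie apart from control arrays in all 12 panels, below in 8 and above in 4, and the untreated kidney is the lowest control for Cyp2e1, at 2.82.

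Family 4, which holds the fatty acid omega-hydroxylases, went both ways. Of 12 tested genes 6 fell, 3 rose (25%) and 3 did not pass, where 27.5% of all genes fell and 21.4% rose. The share that rose was thus near that of all genes. In the Cyp4a genes, Cyp4a10, an omega-hydroxylase induced through Ppara, had 5.52, 4.33 and 5.23 in Clip, 6.70, 6.62 and 6.55 in ClipR-14 and 6.04, 6.92 and 6.08 in control kidneys. The Clip arrays were the lowest and the fall was 2.49-fold (-1.32 ± 0.33, adjusted p = 0.01), with changes of -1.53 and -1.63 for its other 2 probes. Cyp4a31 fell 2.4-fold (-1.26 ± 0.20, adjusted p = 0.000902), with -0.45 under normexp background correction (adjusted p = 0.102). Cyp4a12a, the main arachidonic acid omega-hydroxylase of male mouse kidney, had 4.45, 3.91 and 4.96 in Clip, 4.90, 3.88 and 3.72 in ClipR-14 and 6.75, 5.18 and 4.83 in control kidneys, where sham 1 was far above the others. The Clip and control arms overlapped and the change did not pass (-1.15 ± 0.53, adjusted p = 0.106). Its near-identical neighbour Cyp4a12b, which its probe may not tell apart, had -0.95 ± 0.47 (adjusted p = 0.129). Cyp4a14, another Ppara-induced hydroxylase, had 5.08, 1.84 and 4.30 in Clip, 2.85, 3.07 and 3.87 in ClipR-14 and 0.98, 5.56 and 3.37 in control kidneys. Its controls alone spanned more than its arms differed, and it did not pass (0.44 ± 1.16, adjusted p = 0.778).

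Cyp4b1, which hydroxylates medium-length fatty acids and activates plant toxins, had 5.54, 4.92 and 5.64 in Clip, 7.81, 7.74 and 7.35 in ClipR-14 and 7.89, 7.82 and 7.01 in control kidneys. All Clip arrays were below the rest, a 4.61-fold fall (-2.21 ± 0.28, adjusted p = 0.000288). The Cyp4f genes split. Cyp4f14, an enzyme that inactivates leukotriene B4 and starts the breakdown of vitamin E, had -4.06, -4.57 and -4.24 in Clip, -1.80, -1.69 and -2.03 in ClipR-14 and -1.30, -1.52 and -1.87 in control kidneys. It fell 6.61-fold (-2.72 ± 0.18, adjusted p = 1.2e-05) and was well above background on 2 of 3 Clip arrays, and with normexp background correction its change was -0.60 (adjusted p = 0.177). Its neighbour Cyp4f15 stood at -6.37, -6.61 and -6.68 in Clip, -3.17, -3.81 and -2.83 in ClipR-14 and -2.01, -2.94 and -3.71 in control kidneys. No Clip array was well above background for it, so the fall was at least 3.29-fold (measured means -6.55 ± 0.16 in Clip and -2.89 ± 0.85 in control kidneys, adjusted p = 0.000135), and with normexp background correction its change was -0.02. Cyp4f15 entered the test only through the control and ClipR-14 arms, in which it was high. Cyp4f13 fell 1.36-fold (-0.45 ± 0.16, adjusted p = 0.0493), a call lost in 12 of 18 other settings.

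The 3 risers of family 4 are Cyp4f18, Cyp4f16 and Cyp4v3. Cyp4f18, the leukotriene B4 hydroxylase of mouse neutrophils, had -0.29, -0.04 and -0.34 in Clip, -1.56, -1.63 and -1.73 in ClipR-14 and -1.42, -1.83 and -2.24 in control kidneys. The Clip arrays were the highest, and the rise was 3.05-fold (1.61 ± 0.19, adjusted p = 0.00022). Cyp4f16, which shares a stretch of chromosome 17 with Cyp4f13, Cyp4f14 and Cyp4f15, had 0.23, 0.39 and -0.05 in Clip, -0.37, -0.36 and -0.39 in ClipR-14 and -0.62, -0.92 and -1.28 in control kidneys. It rose 2.19-fold (1.13 ± 0.17, adjusted p = 0.000855), its second probe changed by 0.69, and the 3 arms did not overlap. Cyp4v3, the mouse counterpart of the gene mutated in human Bietti crystalline dystrophy, had -1.57, -1.27 and -1.76 in Clip, -1.78, -1.73 and -2.13 in ClipR-14 and -2.51, -2.24 and -2.44 in control kidneys, a 1.82-fold rise in Clip against control (0.87 ± 0.16, adjusted p = 0.00227). The summed level of the macrophage markers was 4.11 to 4.30 on Clip, 3.39 to 3.63 on ClipR-14 and 2.76 to 3.09 on control arrays. Its part in the rises was not tested.

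The Cyp2c and Cyp2j groups, which hold the arachidonic acid epoxygenases, gave 6 falls and no rise in 9 tested genes. Over all genes, 27.5% fell and 21.4% rose. Cyp2j11 had 0.15, -0.18 and 0.54 in Clip, 2.76, 2.69 and 3.18 in ClipR-14 and 2.83, 2.94 and 2.96 in control kidneys. The ClipR-14 and control arrays overlapped far above the Clip arrays, and Cyp2j11 fell 6.68-fold (-2.74 ± 0.19, adjusted p = 1.5e-05). Cyp2j13 had 2.70, 2.82 and 2.91 in Clip, 5.05, 4.63 and 4.54 in ClipR-14 and 5.62, 5.24 and 4.93 in control kidneys and fell 5.49-fold (-2.46 ± 0.19, adjusted p = 2.45e-05), with changes of -2.24 and -1.96 for its 2 other probes. Cyp2j9 fell 3.29-fold (-1.72 ± 0.24, adjusted p = 0.000445). Cyp2j5, the epoxygenase known from mouse proximal tubule, had 4.87, 4.83 and 4.97 in Clip, 5.73, 5.88 and 5.45 in ClipR-14 and 5.85, 5.73 and 5.33 in control kidneys. The Clip arrays lay close together below all others, and Cyp2j5 fell 1.68-fold (-0.75 ± 0.16, adjusted p = 0.00466), while its dimmer second probe changed by -1.48. Cyp2j6 did not pass (-0.28 ± 0.11, adjusted p = 0.0645).

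Of the Cyp2c genes, Cyp2c23, also named Cyp2c44 and known as a main renal epoxygenase, had 1.48, 0.63 and 1.67 in Clip, 1.57, 2.40 and 1.83 in ClipR-14 and 1.62, 2.28 and 2.10 in control kidneys. The Clip and control arrays overlapped and the change did not pass (-0.74 ± 0.32, adjusted p = 0.0863). Cyp2c40 fell 3.63-fold (-1.86 ± 0.32, adjusted p = 0.00141), with -0.20 under normexp background correction (adjusted p = 0.645). Cyp2c29 had -6.71, -6.95 and -4.41 in Clip, -3.81, -3.52 and -4.08 in ClipR-14 and -3.72, -3.76 and -3.67 in control kidneys. Its Clip arrays ranged widely, only 1 of them was well above background, and the fall of 4.93-fold (-2.30 ± 0.58, adjusted p = 0.0104) turned to 0.36 with normexp background correction. Cyp2c70 did not pass (-0.32 ± 0.33).

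Sterol enzymes fell in 3 of 5 and none rose, where 27.5% of all genes fell and 21.4% rose. Cyp7b1, the oxysterol hydroxylase of bile acid synthesis, had 3.16, 2.79 and 2.95 in Clip, 5.40, 5.35 and 5.15 in ClipR-14 and 5.38, 5.37 and 4.53 in control kidneys. The Clip arrays lay apart below the rest and Cyp7b1 fell 4.35-fold (-2.12 ± 0.23, adjusted p = 0.000115). Cyp51, the lanosterol demethylase of cholesterol synthesis, had -0.56, -1.10 and -0.26 in Clip, 0.83, 1.36 and 1.25 in ClipR-14 and 0.96, 1.03 and 0.60 in control kidneys and fell 2.83-fold (-1.50 ± 0.23, adjusted p = 0.00089). Its other 2 probes changed by -1.68 and -1.50. Cyp27a1, the mitochondrial sterol hydroxylase, had -0.59, -0.75 and -0.58 in Clip, 0.50, 0.42 and 0.28 in ClipR-14 and 0.78, 0.79 and 0.68 in control kidneys. No arms overlapped, replicates lay close together, and Cyp27a1 fell 2.62-fold (-1.39 ± 0.10, adjusted p = 1.41e-05). Cyp46a1, a cholesterol hydroxylase known from neurons, and Cyp39a1, an oxysterol hydroxylase, did not pass (-0.53 ± 0.24 and -0.25 ± 0.11, adjusted p = 0.0966 and 0.0825).

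Of the vitamin A and D enzymes, Cyp26a1, which clears retinoic acid, had -3.67, -4.19 and -3.98 in Clip, -3.84, -3.94 and -4.37 in ClipR-14 and -4.67, -5.11 and -4.62 in control kidneys. It was well above background on the 3 Clip arrays alone, through which it entered the test. The bound on its rise was at least 1.26-fold in Clip against control. Adjusted p was 0.00771 for its measured change of 0.85, and 0.0696 for 0.74 with normexp background correction. Neither p-value belongs to the bound. Its relative Cyp26b1 had -1.77, -1.74 and -3.00 in Clip, -1.98, -1.42 and -0.75 in ClipR-14 and -1.39, 0.04 and -3.29 in control kidneys. The controls spread over a wider range than the other arms, and Cyp26b1 did not pass (-0.62 ± 0.77, adjusted p = 0.533). Cyp2r1, a vitamin D hydroxylase known from liver, had -4.39, -2.49 and -2.81 in Clip, -2.88, -2.98 and -2.46 in ClipR-14 and -6.12, -3.17 and -6.48 in control kidneys. Sham 1 and the untreated kidney were the lowest and were not well above background, sham 2 was close to the other arms, and the change did not pass (2.03 ± 0.84, adjusted p = 0.0768). Of the steroid hormone enzymes only Cyp17a1 was tested, with -0.62 ± 0.34 (adjusted p = 0.166). With slide as a block it passed (adjusted p = 0.00292), a setting in which 5879 of 17741 genes fell and 4458 rose. Cyp11a1, the first enzyme of steroid synthesis, was above background on no array.

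After 12 days without the clip none of the 46 genes passed in ClipR-14 against control kidneys, by limma with adjustment over all genes. Of all genes tested, 1.83% passed in this comparison. At an unadjusted p under 0.05 there were 12 P450 genes, and 21.5% of all genes. The median log2 change was -0.05 over the 46 genes and -0.01 over all genes. The Clip and ClipR-14 comparisons share the control arrays, and their values are given side by side. Cyp2d9 had -3.48 in Clip and -0.40 in ClipR-14, Cyp2d26 -2.97 and -0.17, and Cyp4b1 -2.21 and 0.06. Cyp7b1 had -2.12 in Clip and 0.21 in ClipR-14, and Cyp2j11 -2.74 and -0.03. The second, dimmer Cyp2j11 probe was at -2.72 in Clip and 0.67 in ClipR-14. ClipR-14 and control arrays overlapped for Cyp4b1, Cyp7b1, Cyp2d26 and Cyp2j11, and for Cyp2d9 all ClipR-14 arrays lay just below the controls.

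The ClipR-14 and control arrays did not overlap for 5 of the 46 genes that were higher and 5 that were lower in ClipR-14. That is no larger a share than over all genes, of which 13.6% lay apart in each direction. Cyp20a1, an enzyme with no known substrate, had -2.07, -2.35 and -1.18 in Clip, -2.33, -2.64 and -2.38 in ClipR-14 and -1.34, -1.15 and -0.91 in control kidneys. The ClipR-14 arrays lay below all controls and overlapped the Clip arrays, and Cyp20a1 was at -1.32 ± 0.28 in ClipR-14 (unadjusted p = 0.00124, adjusted p = 0.0549) against -0.74 ± 0.28 in Clip (adjusted p = 0.0552). Cyp2j9, with -1.09, -0.33 and -0.45 in Clip, 0.36, 0.03 and -0.37 in ClipR-14 and 1.20, 1.11 and 0.97 in control kidneys, was at -1.09 ± 0.24 in ClipR-14 (adjusted p = 0.0576). Cyp2f2 was at -1.15 ± 0.29 (adjusted p = 0.081) and Cyp27a1 at -0.35 ± 0.10 (adjusted p = 0.0968). On the other side Cyp1b1 was at 0.61 ± 0.13 in ClipR-14 (adjusted p = 0.0606), Cyp4f16 at 0.57 ± 0.17 and Cyp4v3 at 0.52 ± 0.16 (adjusted p = 0.121 and 0.124). With slide as a block Cyp4v3 and Cyp20a1 passed, and among genes above background on all arrays Cyp1b1, Cyp20a1 and Cyp2j9 passed. Over all genes, 751 of 17741 were higher and 412 lower with slide as a block. Among the 15127 genes above background on all arrays, 314 were higher and 122 lower. Cyp26a1 was well above background on neither the ClipR-14 nor the control arrays, so no difference between them is given. Cyp2r1 was at 2.48 ± 0.84 in ClipR-14 (adjusted p = 0.147), against controls of which 1 was well above background. Cyp4a12a was at -1.42 ± 0.53 and Cyp4a12b at -1.17 ± 0.47 in ClipR-14 (adjusted p = 0.177 and 0.204), with arms that overlapped. Of the marker lists, 4 of 5 fibroblast and 1 of 5 macrophage genes were higher in ClipR-14 than in control kidneys, against 1.46% of all genes. None of the 11 proximal tubule genes passed. The part of these cells in the remaining differences was not tested.

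The direct comparison of ClipR-14 with Clip kidneys, which reuses the same Clip arrays, had 23 genes higher and 5 lower of 46. Over all genes tested 23.5% were higher and 17.4% lower. The median log2 change was 0.73 for the P450 genes and 0.08 for all genes. Cyp2d12 was 8.52-fold higher in ClipR-14 than in Clip kidneys (3.09 ± 0.32, adjusted p = 0.00014) and Cyp2d9 8.42-fold higher (3.07 ± 0.22, adjusted p = 2.33e-05). Cyp4f15, not above background in Clip and tested only through the other arms, was at least 2.52-fold higher (adjusted p = 0.000362 for the measured change of 3.28). Its change turned to -0.26 with normexp background correction. Cyp51 was 3.44-fold higher (1.78 ± 0.23, adjusted p = 0.000507), and Cyp2j6 and Cyp39a1, which had not passed in Clip against control, were 1.41-fold and 1.27-fold higher (adjusted p = 0.00737 and 0.0304). With normexp background correction 9 of the 28 calls were lost (Cyp2c29, Cyp2c40, Cyp2f2, Cyp2s1, Cyp2u1, Cyp39a1, Cyp4a31, Cyp4f14 and Cyp4f15), with Cyp2f2 at 0.31 (adjusted p = 0.432) and Cyp39a1 at 0.14 (adjusted p = 0.463). The 5 lower genes were risers of the clip. Cyp3a13 was at least 1.96-fold lower, Cyp4f18 2.67-fold, Cyp1b1 2-fold, Cyp2s1 1.48-fold and Cyp4f16 1.47-fold lower. Adjusted p for the measured changes lay between 0.000582 and 0.0322. Of the other risers of the clip, Cyp4v3 was at -0.35 ± 0.16 and Cyp26a1 at -0.10 ± 0.20 in ClipR-14 against Clip kidneys, and neither passed (adjusted p = 0.117 and 0.718).

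Kidneys of the same arm differed widely for some P450 genes. The SD within arms, pooled over the 3 arms, had a median of 0.384 over the 46 genes and 0.188 over all genes. It was over 1 for 4 of the 46 (Cyp4a14, Cyp2r1, Cyp2a22 and Cyp26b1) and for 235 of the 17741 genes. Not all of these values were well above background. Cyp2r1 was so on 1 of 3 control arrays, and Cyp2a22 on 2 of 3 Clip and 2 of 3 ClipR-14 arrays. Cyp4a14 had the widest spread, with a pooled SD of 1.67. Its lowest and highest values among all 9 arrays were those of sham 1 and sham 2, which carry the same label. The untreated kidney was at least 2-fold below the mean of the 2 sham kidneys for 7 of the 46 genes and at least 2-fold above it for 1, together 17.4% of the P450 genes, where 4.39% of all genes differed by as much. Cyp26b1 was 2.61 lower in it on the log2 scale, Cyp2e1 1.90 lower and Cyp2a4 1.52 lower. With 1 untreated kidney there is no test of this difference, and its slide and scan date differ from those of the sham kidneys. Of the 5 adrenal markers, 2 were highest in the same kidney: Hsd3b1, a steroid dehydrogenase, at 0.38, where the other 8 arrays lay between -4.60 and -3.17, and Akr1b7 at 1.43, where they lay between 0.04 and 1.02. Mc2r at -4.70 and Nr5a1 at -3.31 were the lowest of the controls there, and Star stood at -3.21, against -3.34 and -3.45 in the sham kidneys. The part of each in the low P450 values was not tested.

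**Figure D4:**
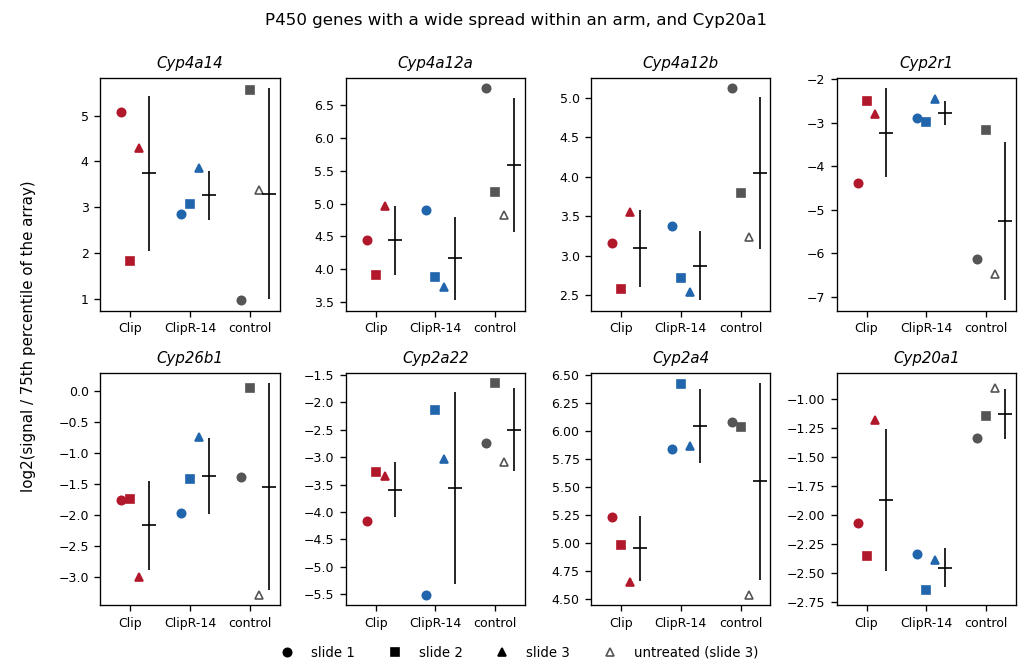
Levels (log2 of signal over the 75th percentile of the array, y axis) of 8 P450 genes in Clip, ClipR-14 and control kidneys (x axis); points are arrays, shapes are slides, the open triangle is the untreated kidney, and black crosses with bars are means and SD of 3. Cyp4a14 runs from 0.98 in sham 1 to 5.56 in sham 2, and in Cyp20a1 all ClipR-14 arrays, at -2.64 to -2.33, lie below the controls, at -1.34 to -0.91.

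Neighbouring P450 genes did not all move alike. Runs were taken as P450 genes with fewer than 5 other protein-coding genes between them. Over all genes, 27.5% fell and 21.4% rose in Clip against control. The Cyp2d run of 5 tested genes had 5 falls, from -3.48 to -1.81 on the log2 scale. The Cyp2j run of 5 had 4 falls, from -2.74, with Cyp2j6 at -0.28 not passing. In the Cyp4a and Cyp4b1 run 3 of 6 fell and none rose, with changes from -2.21 to 0.44. The run on chromosome 7 (Cyp2s1, Cyp2a4, Cyp2b19, Cyp2a5, Cyp2a22 and Cyp2f2) had 2 falls and 1 rise, from -3.20 to 0.47. The Cyp4f run on chromosome 17 had 3 falls (Cyp4f13, Cyp4f14 and Cyp4f15) and 1 rise (Cyp4f16).

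Genes that serve P450 enzymes were taken from lists of known partners. Of 9 redox partners 6 fell and none rose in Clip against control kidneys, and the median log2 change was -0.69. Cyb5a, a small electron carrier of the endoplasmic reticulum, had 5.61, 5.21 and 5.75 in Clip, 6.95, 6.76 and 6.83 in ClipR-14 and 7.25, 7.11 and 7.27 in control kidneys and fell 3.22-fold (-1.69 ± 0.14, adjusted p = 3.44e-05). Por, the reductase that feeds all microsomal P450 enzymes, had 3.86, 3.70 and 3.71 in Clip, 4.94, 4.97 and 4.43 in ClipR-14 and 5.11, 5.07 and 4.59 in control kidneys and fell 2.25-fold (-1.17 ± 0.18, adjusted p = 0.000968). For both genes the Clip arrays lay below all others. Fdx1, the electron donor of the mitochondrial P450 enzymes, fell 2.49-fold (-1.31 ± 0.15, adjusted p = 0.000176). All 7 heme synthesis genes reported here fell, with a median log2 change of -0.71, where 27.5% of all genes fell. Among them Fech, which inserts the iron, was at -1.09 ± 0.10 (adjusted p = 6.69e-05) and Cpox at -1.02 ± 0.13 (adjusted p = 0.000281). Ephx2, the soluble hydrolase that removes the epoxides made by Cyp2c and Cyp2j enzymes, fell 2.91-fold (-1.54 ± 0.14, adjusted p = 4.53e-05), and 3 of the 5 tested genes of its list fell.

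Of 12 listed transcription factors of P450 genes 10 were tested, of which 4 fell and 2 rose in Clip kidneys, where 27.5% of all genes fell and 21.4% rose. Ppara, the receptor that switches on Cyp4a genes, had 1.82, 1.45 and 1.91 in Clip, 2.63, 2.74 and 2.93 in ClipR-14 and 3.49, 3.47 and 3.37 in control kidneys and fell 3.28-fold (-1.71 ± 0.14, adjusted p = 2.56e-05). The 3 arms did not overlap, and in ClipR-14 against control Ppara was at -0.68 ± 0.14 (adjusted p = 0.0508). The bile acid receptor Nr1h4 fell 2.84-fold (-1.51 ± 0.26, adjusted p = 0.00144) and Hnf4a, a factor of liver and proximal tubule, 1.89-fold (-0.92 ± 0.19, adjusted p = 0.00449). The aryl hydrocarbon receptor Ahr rose 1.48-fold (0.56 ± 0.11, adjusted p = 0.00304) and Nr1i2, the receptor that senses foreign compounds, 1.44-fold (0.53 ± 0.17, adjusted p = 0.0297). In ClipR-14 against control no gene of the redox, hydrolase or regulator lists passed, nor did any of the 7 heme synthesis genes reported here. Alas1, the first enzyme of heme synthesis, was at -0.89 ± 0.24 in ClipR-14 (adjusted p = 0.0914) and at -0.71 ± 0.24 in Clip kidneys (adjusted p = 0.0378).

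**Figure D5:**
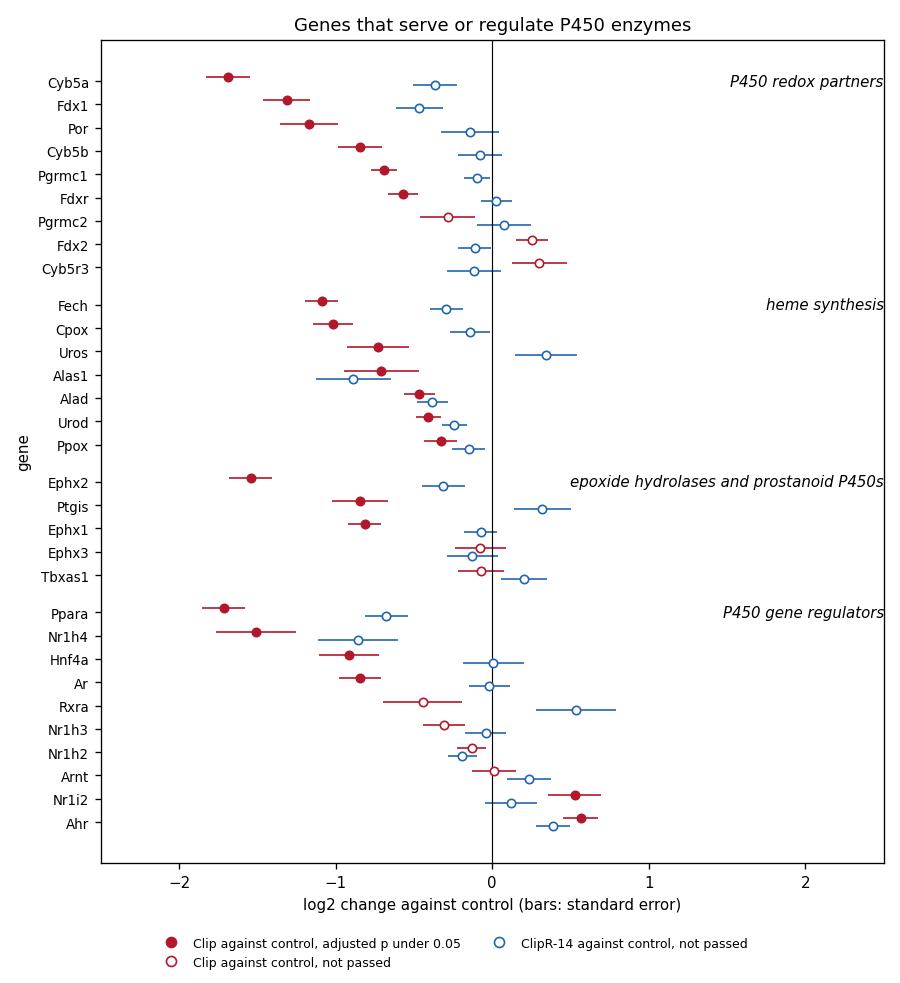
Log2 change against control kidneys (x axis) of redox partners, 7 heme synthesis genes, epoxide hydrolases with prostanoid P450s and P450 gene regulators (y axis) for Clip (red, upper point) and ClipR-14 (blue, lower point); bars are standard errors and filled points have an adjusted p under 0.05. Cyb5a at -1.69 and Ppara at -1.71 lie farthest to the left in Clip kidneys, and no ClipR-14 point is filled.

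The 32 genes that were not tested were dim: 25 were well above background on no array and 7 on 1 (Cyp1a1, Cyp2b10, Cyp2b13, Cyp2b9, Cyp2c37, Cyp2d34 and Cyp3a41a). Just inside the filter, with 3 arrays each, were Cyp26a1, Cyp3a13 and Cyp2b19, and Cyp2b19 had -0.06 ± 0.26 in Clip against control (adjusted p = 0.857). Of the remaining genes Cyp2a22 had -4.16, -3.26 and -3.35 in Clip, -5.51, -2.13 and -3.03 in ClipR-14 and -2.75, -1.65 and -3.09 in control kidneys, and did not pass in any comparison. Its lowest value was that of 1 ClipR-14 kidney. Of the 46 genes 11 had more than 1 probe that passed the filter, and the probes of each gene gave the same sign in Clip against control.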

How the data were processed

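Per the labels' protocols, 500 ng of total RNA from each left kidney was labelled with Cy3 and hybridized to a 1-colour Agilent array. Per the file headers, the deposited processed intensity had been background-subtracted and detrended within each array, with no scaling between arrays, and the grid names build mm9. Here the log2 of that intensity was centred on the 75th percentile of each array, over 41174 probes that are not controls. Probe accessions were named through a RefSeq table (GRCm38.p6), which gave a symbol for 26690 probes and served for names, neighbours and promoters. The brightest probe per gene, well above background on 3 or more arrays, was kept. limma 3.58.1 in R 4.3.3 was fitted to 3 arms over 9 arrays with Benjamini-Hochberg adjustment over 17741 genes, of which 13017 have a symbol, and was tested on simulated data. Arrays give no depth, and their number limits the precision.

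The deposited value table, which looks like log2 values with a centring not given in the sources used here, was not used: of 8065 rows that name a probe 0 lay within 0.02 of that probe and 8059 within 0.02 of another probe. The normexp alternative took the median spot signal and added an offset of 50 intensity units, which shrinks the log2 changes of dim probes. Deviations from the arm means correlated at 0.220, 0.269 and 0.269 between Clip and ClipR-14 arrays of the same number, which share a slide, so the number pairs those arms. Arrays of 1 slide correlated at 0.161 to 0.281 in all 9 pairs; slide as a block is an alternative. The numbers pair the sham kidneys as well (0.223 between sham 1 and Clip 1, 0.161 between sham 2 and Clip 2). They do not pair the untreated kidney, which is numbered 1 but lies on slide 3 (-0.209 between it and Clip 1). The genes with full values were the 12 largest falls and up to 8 largest rises among P450 genes that passed in Clip against control, and a list of known renal P450 genes. Members and lists were chosen with earlier results of these data known. A listed partner gene is not reported here.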

Additional observations from a re-analysis of the deposited data

How the results depend on the processing

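The counts of P450 genes in Clip against control stayed within 1.5 times of 24 falls and 7 rises under every alternative run, with 18 to 26 falls and 5 to 7 rises. The median change moved more: it was -0.52 with normexp correction, -0.75 with quantile normalization, -0.47 with no filter on dim probes (78 genes), -1.38 with the sham kidneys alone as control, -1.49 within slide 2 and -0.53 within slide 3, and -1.38 to -0.84 with 1 array left out. The median over all genes was 0.10 with normexp, 0.00 with quantile normalization and -0.24 with no filter. Quantile normalization also turned the split of all genes to 4544 higher and 4039 lower, against 3789 and 4887. With normexp 23 of the 31 calls held, and Cyp4f15, Cyp4f14, Cyp2c29, Cyp2c40, Cyp2u1, Cyp4a31, Cyp26a1 and Cyp2s1 lost theirs. Signs turned for Cyp2u1 (0.16) and Cyp2c29 (0.36) in Clip against control, and for Cyp4f15 (-0.26) and Cyp2c29 (-0.42) in ClipR-14 against Clip. The cause was not tested.

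In ClipR-14 against control the count of 0 became 1 higher (Cyp1b1) and 2 lower (Cyp20a1 and Cyp2j9) among genes above background on all arrays. Fewer genes were tested there, and 314 of 15127 were higher and 122 lower. With slide as a block the P450 count was 1 higher (Cyp4v3) and 1 lower (Cyp20a1), where 751 of 17741 genes were higher and 412 lower. The same block kept all 31 calls of Clip against control and gained Cyp17a1 and Cyp20a1, where 5879 of 17741 genes fell and 4458 rose. It kept all 28 calls of ClipR-14 against Clip and gained Cyp17a1, Cyp2a4, Cyp2b19, Cyp4f13 and Cyp4v3, where 5217 genes were higher and 3772 lower. In ClipR-14 against control, leaving out 1 array gave 0 to 1 lower (Cyp2f2 without Clip 2, Cyp20a1 without Clip 3) and none higher. Over all 17741 genes, 21 were lower without Clip 2 and 42 without Clip 3. In ClipR-14 against Clip the count of higher P450 genes was 38 with no filter, where 78 were tested. Without the filter 10515 of 32282 genes were higher, and the median over all genes was 0.35. The 15 P450 calls gained there were all of genes too dim for the main test. The count of lower P450 genes was 3 to 5 with 1 array left out. The P450 median was 0.28 with normexp, 1.12 within slide 2 and 0.66 to 0.92 with 1 array left out.

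With the replicate number as a block, Clip against control had 25 falls and 6 rises, losing Cyp2s1 and Cyp4f13 and gaining Cyp20a1 and Cyp2a22. Of all 17741 genes, 4838 fell and 3757 rose there. ClipR-14 against control had 1 rise (Cyp4v3) and no fall, where 160 of 17741 genes were higher and 43 lower. ClipR-14 against Clip, where the numbers pair the arms, had 24 higher and 5 lower, losing Cyp2s1 and gaining Cyp2b19 and Cyp4v3. Of all 17741 genes, 4369 were higher and 3156 lower in it.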
